A study of Mus musculus with 9 samples.

Results

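The core circadian clock genes were examined as a group of 10 genes in mouse retinal ganglion cells (RGCs), the neurons whose axons form the optic nerve. The genes were Clock, Arntl, Per1, Per2, Per3, Cry1, Cry2, Nr1d1, Nr1d2 and Dbp, chosen by name as the core of the clock, with earlier results of these data known. All 10 were found among the 23997 gene symbols listed in the expression files, each at 1 locus, and all 10 were among the 13043 genes that passed the filter on low values and were tested. The 3 conditions of intraocular pressure (IOP) that were compared came from wild type C57BL/6J mice aged 8 weeks at collection per the labels, whose injections were made at 6 weeks. Control eyes received saline, and Mild IOP and Moderate IOP eyes received microbeads in the anterior chamber, which obstruct aqueous outflow, with pressure followed for 2 weeks. Mild and Moderate denote lower and higher ranges of pressure increase. All groups shared the same isolation, in which RGCs of female and male mice were bound to an antibody against Thy1.2 after negative panning steps, with actinomycin D present to block new transcription. RNA of each group was then pooled and divided into 3, so the 9 libraries came from 3 pools and p-values measured technical spread only. Pool and pressure cannot be told apart, and the Moderate IOP pool drew on fewer retinas than the others. The hour at which retinas were collected is not given in the sources used here.

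The circadian clock of mammals is a feedback loop of transcription. CLOCK and BMAL1 (encoded by Arntl) bind E-boxes as a pair and activate Per and Cry genes, whose proteins accumulate and repress that pair. The same pair activates Nr1d1 and Nr1d2, which encode the nuclear receptors REV-ERB alpha and REV-ERB beta, repressors of Arntl, and Dbp, a PAR bZIP factor that carries the rhythm to target genes through D-boxes. The retina contains its own clock, and in most tissues the transcripts of Dbp, Nr1d1 and the Per genes swing over the day in near opposition to Arntl, so that a level read at a single time also depends on the hour.

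The promoters of these genes were searched for elements through which clock genes are regulated, and 6 are printed. Those of Nr1d2 and Cry2, which differ below, are set beside their paralogs Nr1d1 and Cry1, and those of Per1 and Per3 are added because they hold the other matches found upstream of a start. The upstream windows of Dbp, Arntl and Clock, and that of a second Per1 start, held no match and are not printed. Each sequence is the 250 bases before the RefSeq start site on the gene's own strand, from the mouse build GRCm38.p6, with motif matches in capitals. The E-box was searched as CACGTG, the D-box as TTATGTAA, the ROR and REV-ERB core element as TAGGTCA and the cAMP response element (CRE) as TGACGTCA, each on both strands and none overlapping another in these windows. The windows lie at chr11:69098699-69098948 on the plus strand for Per1, and on the minus strand at chr4:151044666-151044915 for Per3, chr10:85185055-85185304 for Cry1, chr2:92434070-92434319 for Cry2, chr11:98775378-98775627 for Nr1d1 and chr14:18239107-18239356 for Nr1d2.
Per1: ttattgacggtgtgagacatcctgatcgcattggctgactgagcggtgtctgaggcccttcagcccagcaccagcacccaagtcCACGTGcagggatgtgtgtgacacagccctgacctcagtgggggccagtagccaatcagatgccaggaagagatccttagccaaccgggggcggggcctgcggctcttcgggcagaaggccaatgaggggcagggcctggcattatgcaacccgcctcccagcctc
Per3: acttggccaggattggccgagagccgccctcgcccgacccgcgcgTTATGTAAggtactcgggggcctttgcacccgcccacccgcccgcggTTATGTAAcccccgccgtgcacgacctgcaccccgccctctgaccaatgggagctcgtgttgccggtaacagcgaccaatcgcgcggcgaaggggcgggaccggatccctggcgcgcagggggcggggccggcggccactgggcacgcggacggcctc
Cry1: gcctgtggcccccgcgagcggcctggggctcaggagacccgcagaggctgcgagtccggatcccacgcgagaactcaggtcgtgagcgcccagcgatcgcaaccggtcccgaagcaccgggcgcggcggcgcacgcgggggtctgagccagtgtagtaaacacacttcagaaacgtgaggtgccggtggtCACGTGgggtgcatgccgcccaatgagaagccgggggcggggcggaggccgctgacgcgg
Cry2: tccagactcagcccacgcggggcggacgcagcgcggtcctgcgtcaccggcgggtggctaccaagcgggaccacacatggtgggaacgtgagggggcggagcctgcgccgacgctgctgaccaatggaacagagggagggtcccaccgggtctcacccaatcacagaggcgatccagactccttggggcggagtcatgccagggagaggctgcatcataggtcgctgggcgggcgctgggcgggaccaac
Nr1d1: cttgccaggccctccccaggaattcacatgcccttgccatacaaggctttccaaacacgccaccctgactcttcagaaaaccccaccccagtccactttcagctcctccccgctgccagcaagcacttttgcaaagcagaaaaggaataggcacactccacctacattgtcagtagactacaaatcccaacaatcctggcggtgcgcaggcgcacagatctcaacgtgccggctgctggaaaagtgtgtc
Nr1d2: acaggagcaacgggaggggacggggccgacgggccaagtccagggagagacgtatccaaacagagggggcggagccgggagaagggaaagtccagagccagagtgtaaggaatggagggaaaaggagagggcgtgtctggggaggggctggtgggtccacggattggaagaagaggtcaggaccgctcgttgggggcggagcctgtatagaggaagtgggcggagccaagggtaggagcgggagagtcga

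Per1 had 1 E-box 166 bases before the start used here, and the window of its second start held no match. Cry1 had 1 E-box 60 bases before its start. Per3 had 2 D-boxes, at 205 and 158 bases before its start. Cry2, Nr1d1 and Nr1d2 had no match to any of the 4 motifs, which says only that those letters were absent from these windows. Windows that reach from 250 bases before to 50 bases after a start were listed for 9 of the 10 genes, 13 windows in all, and Per2 was not among them. Over these 13 windows, an E-box occurred in 2, a D-box in 1, the ROR and REV-ERB core in 1, that of the second Arntl start at 31 bases past the start, and a CRE in 0. Among all 32851 promoter windows of this length, 7.15% held the E-box, 0.938% the D-box, 2.61% the ROR and REV-ERB core and 1.79% the CRE.

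Expression values were FPKM, a measure that divides fragment counts by transcript length and by the size of the library, and libraries were brought to a common scale by median-of-ratios factors of 0.983 to 1.058. Depths derived from the width of the FPKM intervals lay between 4370000 and 7810000 fragments per library. The microRNA gene Mir1249 held 20.5% of the summed FPKM of Mild IOP replicate 2, and Mir8104 held 9.14% in Moderate IOP replicate 3. In the other libraries the highest gene was Ubb. All 9 genes of the RGC list were detected in every library and tested. Their levels were uneven, with most of the sum in Sncg and Nefl and with Pou4f3 at 0.77 to 5.12 scaled FPKM, and they summed to 1423 to 1504 in Control, 1039 to 1285 in Mild IOP and 2245 to 2395 in Moderate IOP. Amacrine cell markers were also present in every group, at 766 to 814, 842 to 901 and 548 to 597. Rod markers summed to 410 to 502 in Control and 269 to 316 in the IOP groups, and the 3 lens genes to 212 to 279 in Control and at most 1.20 in the IOP groups. In pooled tissue of this kind, fewer cells of a type and less RNA per cell cannot be told apart.

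The clock genes spanned a wide range of levels, and the order was similar in the 3 groups. In Control, the mean scaled FPKM was highest for Nr1d1 at 180.0 ± 14.9 (SD, n = 3), a level above that of 95.5% of tested genes, followed by Dbp at 132 ± 8.76 and Cry2 at 75.1 ± 5.22. Cry1 at 24.7 ± 8.83, Nr1d2 at 24.2 ± 1.42 and Arntl at 14.6 ± 0.514 were intermediate. Per3 at 5.75 ± 1.18, Per2 at 5.43 ± 1.51, Clock at 4.47 ± 0.822 and Per1 at 3.75 ± 0.765 lay below the median tested gene, which stood at 8.46. Nr1d1, Dbp and Cry2 did not overlap with each other or with any lower gene in Control. Cry1 and Nr1d2 were not separable there, and neither were Per3, Per2 and Clock, nor Per2, Clock and Per1. In Mild IOP, however, every Nr1d2 value lay above every Cry1 value. The values of the abundant genes rested on many fragments (2459 to 4098 for Nr1d1), whereas those of Per1 rested on 67.2 to 183, and the ratio of the highest to the lowest of the 9 libraries was 1.28 for Dbp, 1.41 for Nr1d1 and 2.80 for Per1.

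**Figure D1:**
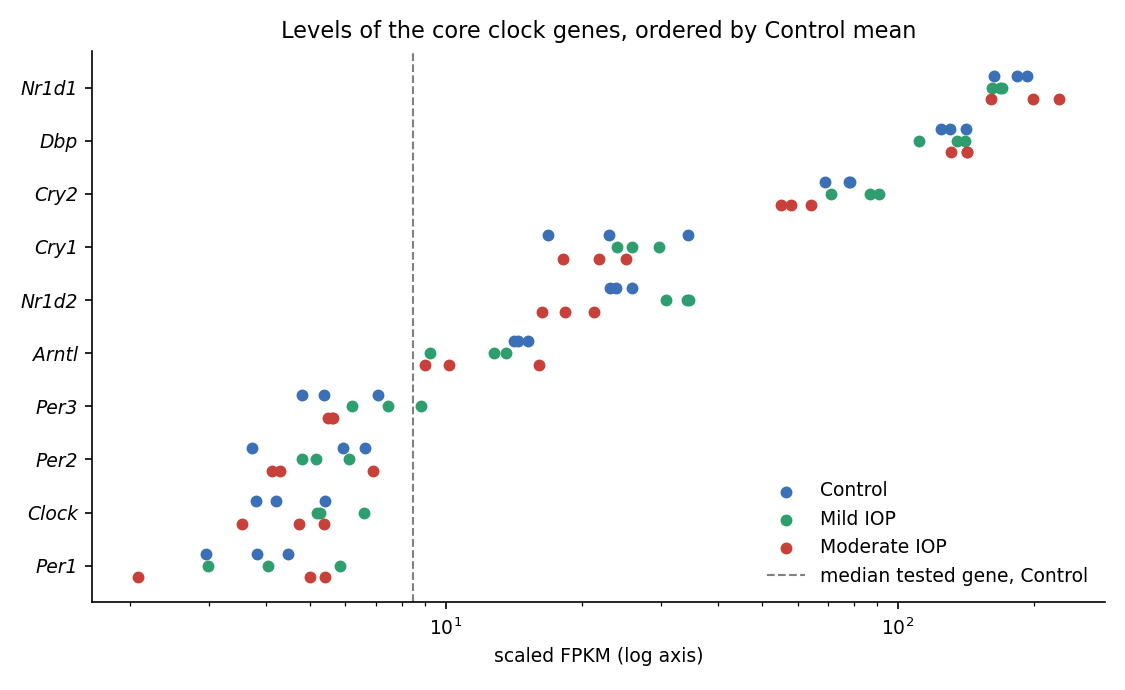
Scaled FPKM (log axis) of each clock gene in the 9 libraries, 1 point per library, ordered by the Control mean, with the median tested gene of Control as a dashed line at 8.46. Nr1d1, Dbp and Cry2 sit well above that line in all groups and Per2, Clock and Per1 below it.

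Against Control, no clock gene passed the test at either pressure, and the contrast between the pressures held the only differences that did. In Mild IOP, 0 of 10 clock genes were called at an FDR below 0.1 by limma, where 0.399% of all tested genes were called (52 genes), and 1 of 10 had an unadjusted p below 0.05, against 10.2% of all tested genes. In Moderate IOP, 0 of 10 were called, where 1.84% of all tested genes were called (240 genes), and 2 of 10 had an unadjusted p below 0.05, against 15.3%. Between Moderate IOP and Mild IOP, 2 of 10 were called, Nr1d2 and Cry2, both lower in Moderate IOP, and the same 2 had an unadjusted p below 0.05, against 21.8%. In that comparison, 10.2% of all tested genes were called in either direction and 3.12% were called lower. Of those 1324 genes, 69.3% were higher in Moderate IOP, a share of 52.5% without scaling and 50.7% under upper-quartile scaling.

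Over the 10 genes, the log2 fold-change had a median of 0.13 for Mild IOP against Control, of −0.05 for Moderate IOP against Control and of −0.18 for the contrast between the pressures, beside 0.006, 0.004 and −0.016 over all tested genes. In this fit, 5 genes (Per2, Per3, Cry1, Cry2 and Nr1d2) had a mean above Control in Mild IOP and below it in Moderate IOP, and 2 (Dbp and Nr1d1) the reverse. Of these genes, Nr1d2 and Cry2 alone kept both signs under every alternative and without each library in turn. Both contrasts share the Control libraries.

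**Figure D2:**
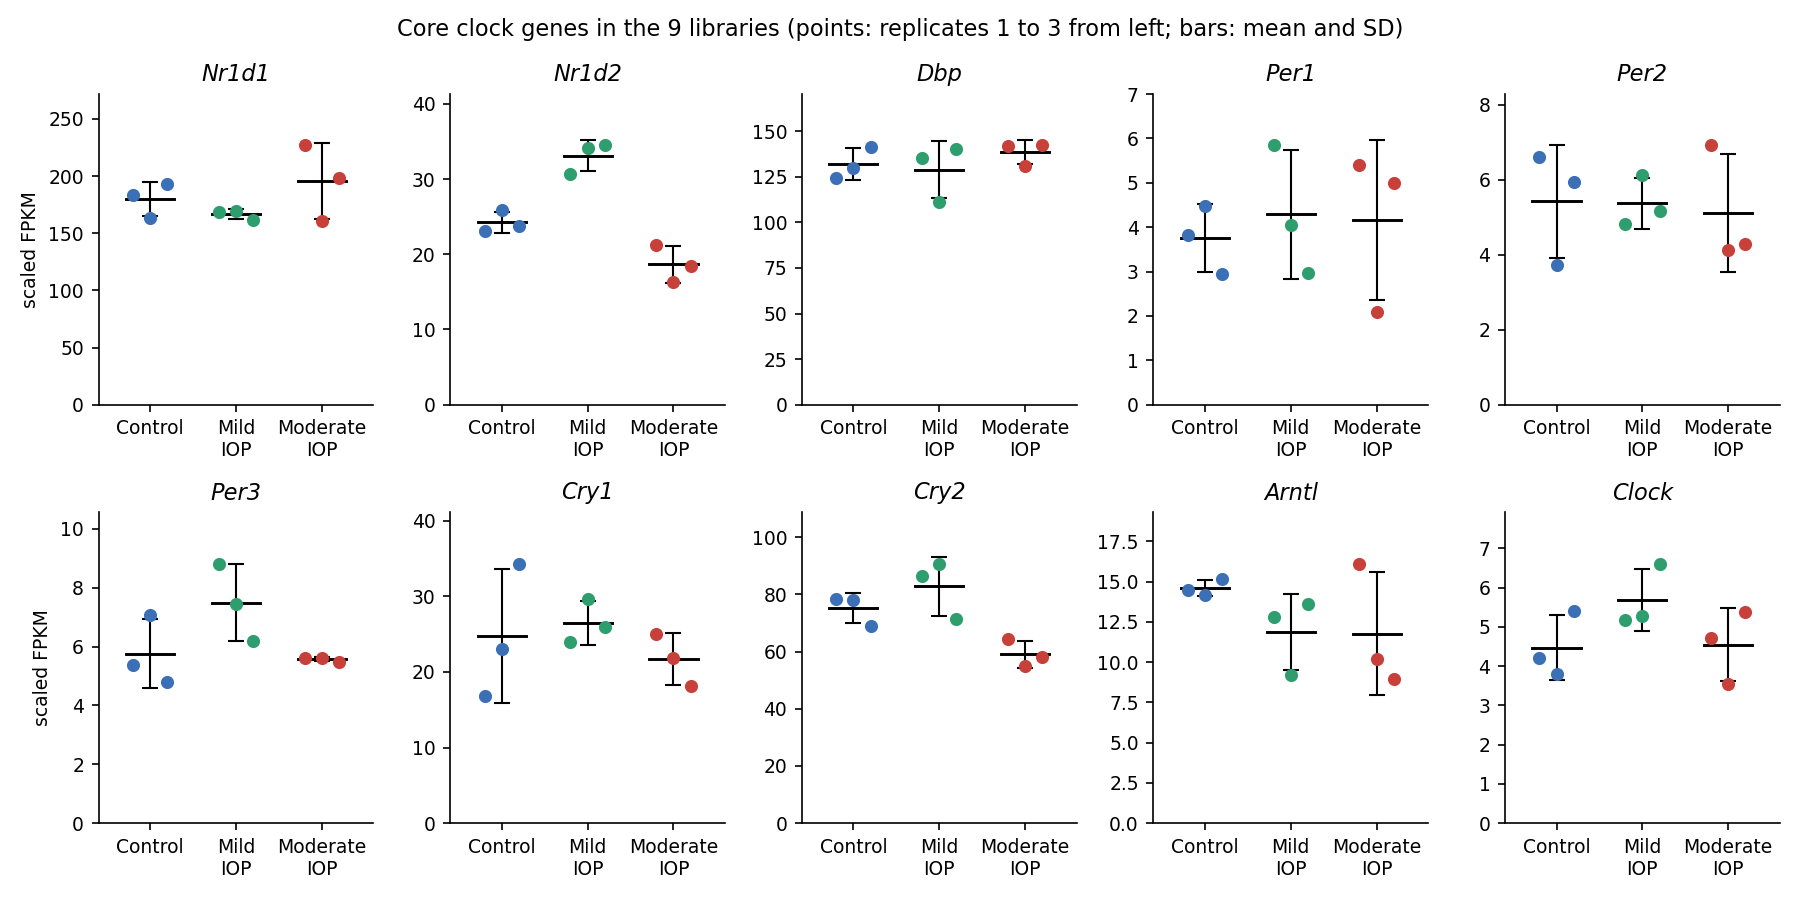
Scaled FPKM of the 10 clock genes in each library (points, replicates 1 to 3 from left) with the mean and SD of the 3 libraries of a group as bars, each panel on its own axis from 0. The Nr1d2 values of the 3 groups do not overlap, and all Cry2 values of Moderate IOP lie below those of Control and Mild IOP.

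Nr1d2, which encodes REV-ERB beta, differed most between the pressures. In Control, its scaled FPKM was 23.1, 25.8 and 23.8. In Mild IOP it was 30.7, 34.1 and 34.5, and in Moderate IOP 21.3, 16.3 and 18.4. Every Mild IOP value was above every Control value and every Moderate IOP value was below, so the groups formed 3 separate bands. The log2 fold-change of Moderate against Mild IOP was −0.80 (SE 0.15, 95% interval −1.12 to −0.48, FDR 0.0125) on the scale of scaled FPKM plus 1, a ratio of 0.574. Neither step from Control passed the threshold on its own, at 0.43 (SE 0.15, FDR 0.301) for Mild IOP and −0.37 (SE 0.15, FDR 0.270) for Moderate IOP against Control. The call between the pressures held in all 9 fits that left out 1 library, with log2 fold-changes of −0.89 to −0.71. The fragments behind these values numbered 495 to 1150 per library. The locus spans chr14:18204056-18239106 on the minus strand of mm10, and no other listed locus overlapped it.

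Nr1d1, the paralog that encodes REV-ERB alpha, did not follow the same course. Its scaled FPKM was 184, 164 and 193 in Control, 169, 170 and 162 in Mild IOP and 227, 161 and 199 in Moderate IOP. The 3 groups overlapped, and Moderate IOP held both the highest and the lowest library of all 9. The log2 fold-changes were −0.11 (SE 0.14, FDR 0.854) in Mild IOP and 0.11 (SE 0.14, FDR 0.755) in Moderate IOP, and 0.21 (SE 0.14, 95% interval −0.08 to 0.51, FDR 0.393) between the pressures. Nr1d1 lies at chr11:98767932-98775377 on the minus strand, tail to tail with Thra, the thyroid hormone receptor alpha gene on the plus strand. In the GENCODE annotation, the exons of the pair share 263 bases, 8.55% of the exonic bases of Nr1d1, and the library kit does not mark strand. In the deposited files, the listed Thra locus ends at 98765111, before Nr1d1 begins, so the annotations differ on this overlap. Thra itself was measured at 38.7 to 60.3 scaled FPKM.

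Because the REV-ERB genes parted, their ratio within each library is informative and independent of the scaling between libraries. The ratio of Nr1d1 to Nr1d2 in FPKM was 7.46 ± 0.985 in Control (range 6.33 to 8.11), 5.05 ± 0.405 in Mild IOP (4.69 to 5.49) and 10.4 ± 0.525 in Moderate IOP (9.83 to 10.8). The 3 groups did not overlap. The ratio was chosen after the values of both genes had been seen and was not tested. By contrast, the ratio of Cry2 to Cry1 overlapped between all groups, at 3.35 ± 1.31, 3.14 ± 0.439 and 2.76 ± 0.375. The ratio of Arntl to Clock was 3.32 ± 0.464 in Control (2.82 to 3.72), 2.09 ± 0.362 in Mild IOP (1.75 to 2.47) and 2.65 ± 0.889 in Moderate IOP (1.67 to 3.41), so Mild IOP lay below Control and Moderate IOP spanned both. The ratio of Dbp to Arntl was 9.02 ± 0.391 in Control (8.58 to 9.32) and 11.0 ± 0.945 in Mild IOP (10.3 to 12.1), without overlap. In Moderate IOP it was 12.5 ± 3.52 (8.82 to 15.8). That of Nr1d1 to Arntl was 11.5 to 12.7 in Control, 11.9 to 18.4 in Mild IOP and 14.1 to 22.1 in Moderate IOP. For Cry2 to Nr1d2 the ranges were 2.91 to 3.38, 2.07 to 2.82 and 3.02 to 3.37. Per3 to Per2 overlapped between all groups. These ratios were not tested either, and the share of other gene pairs without overlap was not determined.

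**Figure D3:**
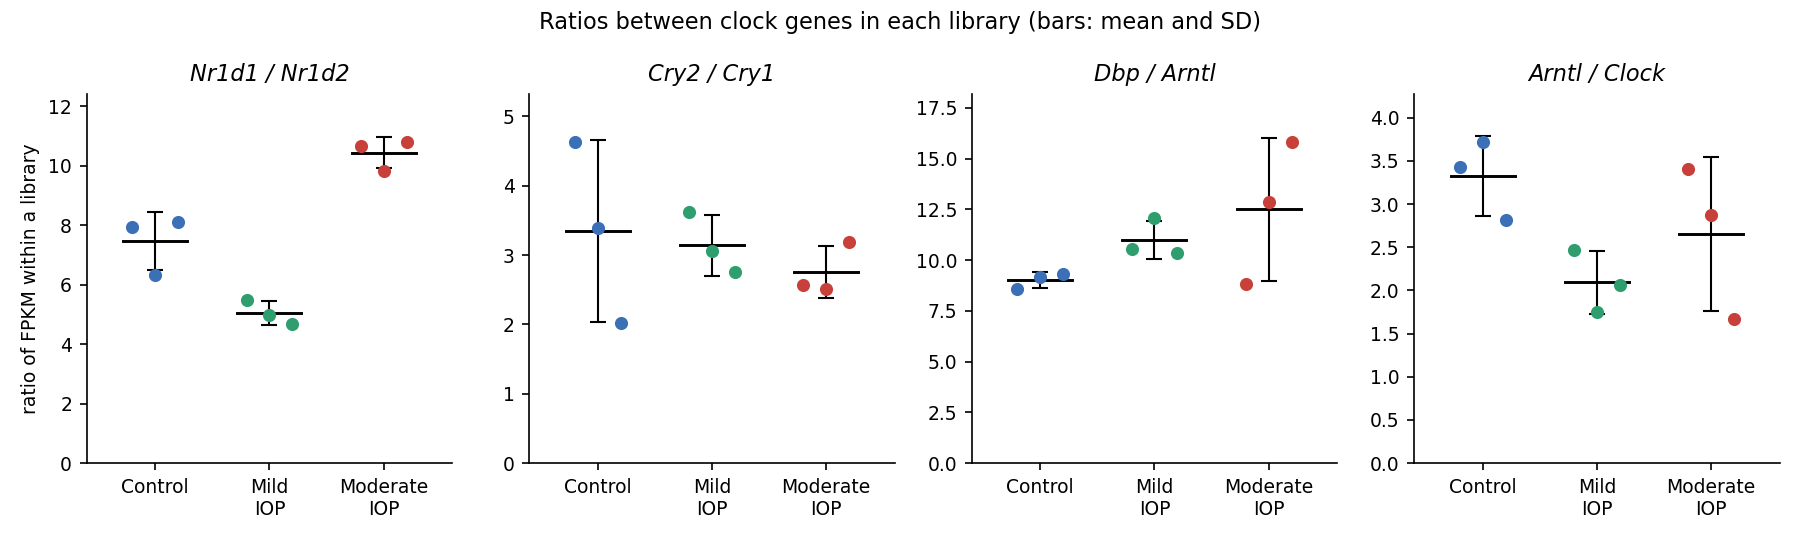
Ratios of FPKM between pairs of clock genes within each library, with points for replicates 1 to 3 and bars for the mean and SD of 3 libraries, each axis from 0. The ratio of Nr1d1 to Nr1d2 forms 3 separate bands, lowest in Mild IOP at 5.05 and highest in Moderate IOP at 10.4, whereas the ratio of Cry2 to Cry1 overlaps throughout.

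Among the repressors of the central loop, Cry2 was the only gene called. CRY2 is a cryptochrome that, bound to PER proteins, holds the CLOCK and BMAL1 pair inactive. Its scaled FPKM was 78.2, 78.1 and 69.1 in Control, 86.6, 90.6 and 71.2 in Mild IOP, and 64.2, 55.0 and 58.0 in Moderate IOP. All Moderate IOP libraries lay below all others, while Mild IOP overlapped with Control because its replicate 3 fell within the Control range. Moderate against Mild IOP gave a log2 fold-change of −0.48 (SE 0.13, 95% interval −0.77 to −0.19, FDR 0.0608), a ratio of 0.719. Against Control, the values were 0.13 (SE 0.13, FDR 0.809) in Mild IOP and −0.34 (SE 0.13, FDR 0.256) in Moderate IOP. The call rested on single libraries, since it was lost without Mild IOP replicate 1 (FDR 0.185), Mild IOP replicate 2 (FDR 0.211), Moderate IOP replicate 2 (FDR 0.157) or Moderate IOP replicate 3 (FDR 0.125), and also when the variance was not trended (FDR 0.143). Cry2 lies at chr2:92403647-92434069 on the minus strand and shares 295 exonic bases (4.67%) with D930015M05Rik on the other strand, which was at 0.11 to 2.24 scaled FPKM.

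Cry1, the paralog of Cry2 and the stronger repressor of the pair, was more variable. It was at 16.9, 23.0 and 34.3 scaled FPKM in Control, at 23.9, 29.6 and 25.9 in Mild IOP, and at 25.1, 21.8 and 18.2 in Moderate IOP. The Control libraries alone spanned the range of the other 6, although 316 to 632 fragments lay behind each value. The log2 fold-change between the pressures was −0.28 (SE 0.23, 95% interval −0.79 to 0.23, FDR 0.525), an interval that includes the Cry2 value.

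The Per genes, which encode the partners of the cryptochromes, were low and none was called. Per3 came nearest. It was at 5.39, 7.06 and 4.80 in Control, 8.81, 7.45 and 6.19 in Mild IOP and 5.63, 5.60 and 5.49 in Moderate IOP. Every Moderate IOP value was below every Mild IOP value, and both groups overlapped with Control. The log2 fold-change between the pressures was −0.36 (SE 0.21, 95% interval −0.82 to 0.11, FDR 0.362), and that of Mild IOP against Control was 0.33 (SE 0.21, FDR 0.651).

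Per2 was at 6.62, 3.73 and 5.94 in Control, 4.81, 6.12 and 5.17 in Mild IOP, and 6.92, 4.14 and 4.29 in Moderate IOP. Its libraries overlapped in every pair of groups, and all 3 log2 fold-changes lay between −0.08 and 0.01. The 95% intervals of Moderate IOP against Control (−0.64 to 0.50) and against Mild IOP (−0.65 to 0.49) reached past a 1.5-fold decrease. Per1, an immediate target of light and calcium signals in the master clock of the brain, was at 3.82, 4.48 and 2.96 in Control, 5.85, 4.05 and 2.98 in Mild IOP, and 5.40, 2.09 and 5.00 in Moderate IOP. Here too the groups overlapped, and the 95% interval of Moderate IOP against Control (−0.65 to 0.77) was wider than a 1.5-fold change in either direction. A change of that size in Per1 was therefore not detectable with this spread between libraries, whose coefficient of variation was 20.4% to 43.4% within groups.

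The activators showed no called difference, but some of their 95% intervals reached past a 1.5-fold change. For Arntl these were Mild IOP (−0.79 to 0.20) and Moderate IOP (−0.83 to 0.17) against Control. For Clock they were Mild IOP against Control (−0.20 to 0.79) and Moderate against Mild IOP (−0.77 to 0.22). Arntl was at 14.5, 14.2 and 15.2 scaled FPKM in Control, 12.8, 9.22 and 13.6 in Mild IOP, and 16.1, 10.2 and 8.99 in Moderate IOP. All Mild IOP libraries were below all Control libraries, with a log2 fold-change of −0.29 (SE 0.23, FDR 0.732), whereas Moderate IOP held values above and below Control (−0.33, SE 0.23, FDR 0.520). Control was the tighter group by far, with a coefficient of variation of 3.52% against 19.6% and 32.4%. Clock was at 4.22, 3.81 and 5.39 in Control, 5.18, 5.27 and 6.61 in Mild IOP, and 4.73, 3.54 and 5.37 in Moderate IOP. Its groups overlapped throughout, with log2 fold-changes of 0.29 (SE 0.23, FDR 0.735), 0.02 (SE 0.23, FDR 0.984) and −0.28 (SE 0.23, FDR 0.522) for Mild IOP, Moderate IOP and the difference between them.

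Dbp, the output gene and the steadiest of the group, was at 124, 130 and 141 scaled FPKM in Control, 135, 111 and 141 in Mild IOP, and 142, 131 and 142 in Moderate IOP. The groups overlapped. For Mild and Moderate IOP, the log2 fold-changes from Control were −0.04 (95% interval −0.30 to 0.23) and 0.07 (−0.20 to 0.34), that of Moderate against Mild IOP was 0.11 (−0.16 to 0.37), and no interval reached a 1.5-fold change. Dbp lies at chr7:45705247-45710203 on the plus strand and shares 539 of its 2993 exonic bases (18.0%) with Sphk2 on the minus strand, which was at 13.2 to 23.6 scaled FPKM, so a part of its fragments could not be assigned by strand.

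**Figure D4:**
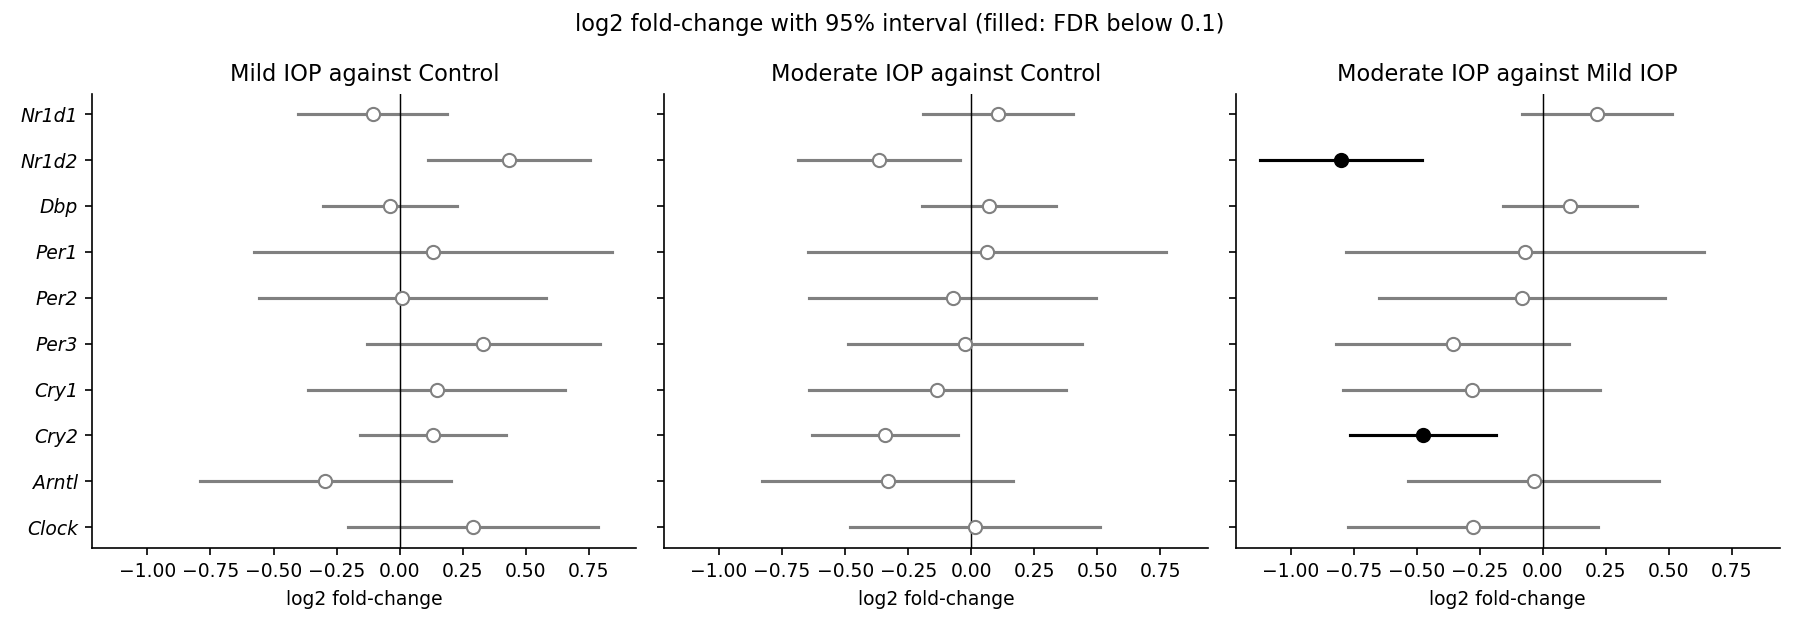
Log2 fold-change (x axis) of the 10 clock genes in the 3 comparisons, with 95% intervals as lines and filled points for an FDR below 0.1. Only Nr1d2 at −0.80 and Cry2 at −0.48 are filled, both for Moderate IOP against Mild IOP, and the intervals of Per1 and Per2 are the widest.

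Non-overlap of the libraries, a looser rule, was met by more clock genes than the FDR threshold in each comparison. Against Control, Nr1d2 lay wholly above and Arntl wholly below in Mild IOP, where 7.94% and 9.13% of all tested genes did so, and Cry2 and Nr1d2 lay wholly below in Moderate IOP, where 9.48% did. Between the pressures, Nr1d2, Cry2 and Per3 lay wholly below in Moderate IOP, as did 13% of all tested genes.

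The marker lists moved between the same pools. Between Moderate and Mild IOP, 5 of 9 RGC markers rose and 0 fell, and 3 of 6 tested amacrine markers fell and 0 rose, where 7.03% of all tested genes rose and 3.12% fell. The amacrine list was split, since Slc6a9, Gad1 and Gad2 fell. The other 3 had log2 fold-changes above 0 that were not called, at 0.29 for Slc32a1, 0.42 for Tfap2a and 0.13 for Tfap2b. The summed amacrine markers, most of which was Gad1 at 396 to 437 scaled FPKM in Moderate IOP, lay below the other groups in Moderate IOP, as did Nr1d2 and Cry2, and above Control in Mild IOP, as did Nr1d2. The part of cell composition in the Nr1d2 and Cry2 differences was not tested. The bipolar, rod, cone, astrocyte, microglia, endothelium and lens lists had 0 genes called between the pressures, the endothelial marker Cldn5 was at 0 in all libraries, and 1 of 4 Muller glia markers, Glul, rose, while all Moderate IOP values of Slc1a3 lay below those of Mild IOP (log2 fold-change −0.35, FDR 0.408). The Muller glia list had sums of 33.0 to 43.3 in Mild IOP and 48.8 to 81.6 in Moderate IOP.

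Further clock genes, from a list of 23, gave a similar picture. The list held paralogs, other activators and repressors, PAR bZIP factors, and genes whose products modify, degrade or assist the core proteins. Of the 22 that were tested, 0 were called in Mild IOP and 0 in Moderate IOP against Control, where 0 and 4 had an unadjusted p below 0.05, against 10.2% and 15.3% of all tested genes. Between the pressures, 2 were lower in Moderate IOP and 0 higher, beside the 3.12% and 7.03% of all tested genes called in those directions. The median log2 fold-change was −0.13.

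Csnk1d, which encodes casein kinase 1 delta, a kinase that marks PER proteins for degradation, fell between the pressures. It was at 37.3, 31.3 and 39.9 scaled FPKM in Control, 35.5, 42.9 and 31.8 in Mild IOP, and 20.9, 26.6 and 18.4 in Moderate IOP. All Moderate IOP values lay below all others. The log2 fold-change of Moderate against Mild IOP was −0.72 (SE 0.18, 95% interval −1.11 to −0.33, FDR 0.0397) and that of Moderate IOP against Control −0.70 (SE 0.18, FDR 0.107). The former call was lost in 4 of the 9 fits without 1 library, those without Mild IOP replicate 1 (FDR 0.102), Mild IOP replicate 2 (FDR 0.167), Moderate IOP replicate 1 (FDR at the threshold) or Moderate IOP replicate 3 (FDR 0.106).

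Nono, an RNA-binding partner of PER proteins, fell less. It was at 85.6, 88.6 and 93.7 scaled FPKM in Control, 91.8, 100.8 and 97.6 in Mild IOP, and 79.0, 72.9 and 77.5 in Moderate IOP, with a log2 fold-change of −0.33 (SE 0.11, FDR 0.0981) between the pressures. Moderate IOP was again the lowest group without overlap. That call was at the edge of the threshold and held in 1 of the 9 fits without 1 library, the FDR reaching 0.269 without Mild IOP replicate 2. Nono had the highest Control mean of this list at 89.3, followed by Tef, a PAR bZIP factor related to Dbp, at 87.6 ± 8.26, and Ciart, a repressor of CLOCK and BMAL1.

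Tef was at 85.3 to 86.7 in Mild IOP and 64.4 to 76.1 in Moderate IOP, and its log2 fold-change between the pressures was −0.26 (SE 0.12, 95% interval −0.53 to 0.002). Ciart was at 56.2 to 62.0 in Control, 45.6 to 55.2 in Mild IOP and 44.2 to 55.1 in Moderate IOP. Its log2 fold-change between the pressures was 0.01. Rorb, chosen after its values were seen, was at 69.3 in Mild IOP replicate 2 and at 15.7 to 20.2 in the other 8 libraries.

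**Figure D5:**
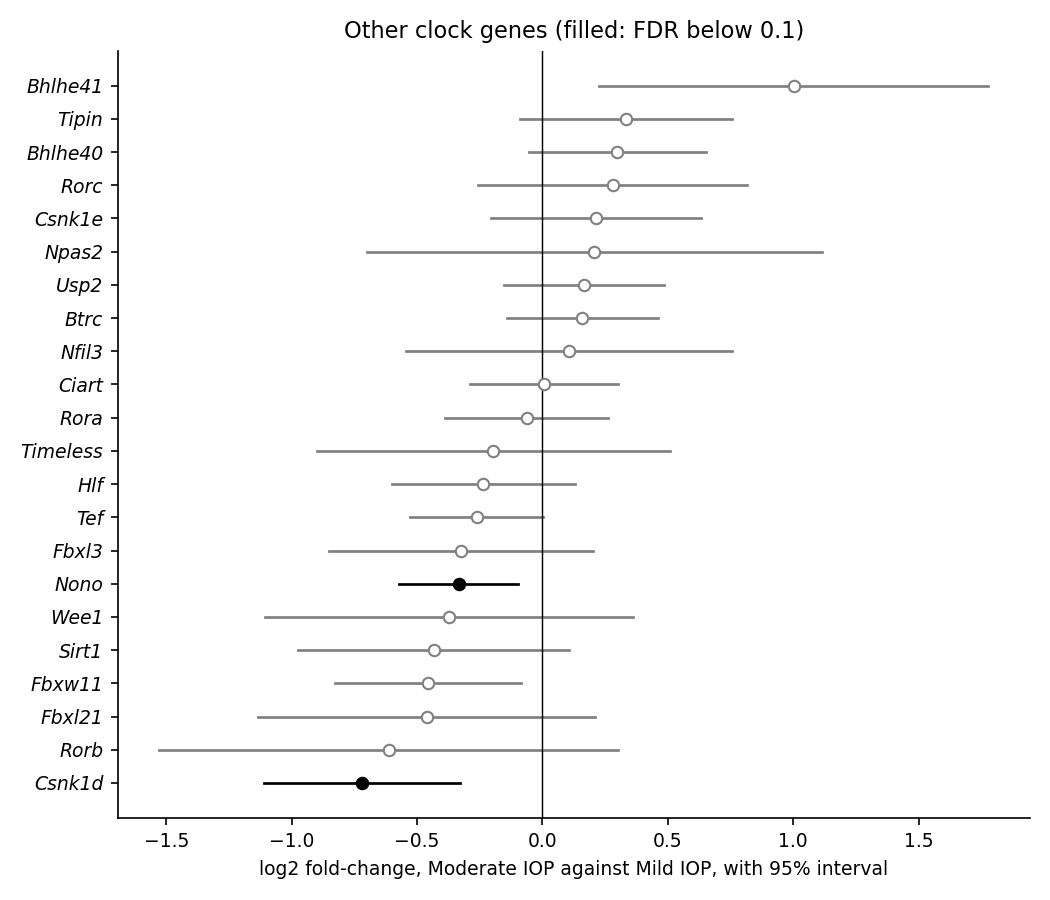
Log2 fold-change of Moderate IOP against Mild IOP for the 22 tested genes of the wider clock list, with 95% intervals as lines and filled points for an FDR below 0.1. Csnk1d at −0.72 and Nono at −0.33 are filled, and Bhlhe41 has the highest value at 1.00 with a wide interval that gave an FDR above the threshold.

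Genes that convey light to the clock were not called. Of the immediate early genes, which neurons induce rapidly on activity, 3 were higher in Moderate than in Mild IOP, where Nr1d2 was lower. Of 9 light input genes, 0 were called in any comparison by limma, and an unadjusted p below 0.05 was found for 0 of them in Mild IOP, for 3 in Moderate IOP and for 1 in the contrast of the pressures, against 10.2%, 15.3% and 21.8% of all tested genes. Of 12 immediate early genes, 9 were tested, of which 2 were called for Mild and 1 for Moderate IOP against Control, and 3 between the pressures. In Mild IOP, the zinc finger factor gene Egr1 fell from 71.7 ± 3.57 to 39.2 ± 2.37 scaled FPKM (log2 fold-change −0.86, SE 0.12, FDR 0.0150) and the nuclear receptor gene Nr4a1 from 33.5 ± 4.16 to 16.8 ± 3.13 (−0.96, SE 0.17, FDR 0.0631). In Moderate IOP, the AP-1 gene Junb rose from 23.3 ± 3.22 to 45.6 ± 10.8 (0.93, SE 0.18, FDR 0.0418). Between the pressures, Fos, Egr1 and Junb were higher in Moderate IOP, with log2 fold-changes of 0.84, 0.58 and 1.04 and FDRs of 0.00900, 0.0186 and 0.0103. For Moderate IOP against Control, Fos was at 0.21 (SE 0.13, FDR 0.505) and Egr1 at −0.28 (SE 0.12, FDR 0.291). The shares of all tested genes called were 0.399% and 1.84% in the contrasts with Control, and 7.03% were called higher in Moderate than in Mild IOP. Per1 had a log2 fold-change of −0.07 (95% interval −0.78 to 0.64) in the same comparison.

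For each called clock gene, the gene with the nearest profile over the 9 libraries was sought, with all genes of the lists above left out. For Nr1d2 this was Celf1, which encodes an RNA-binding protein, at a Euclidean distance of 0.327 between the centred log2 values, where the profile of Nr1d2 itself had a length of 1.03. For Cry2 it was Rptor, which encodes a subunit of the mTORC1 kinase complex, at 0.168 beside a length of 0.688. These distances describe the 9 libraries of 3 pools.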

How the data were processed

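RGC libraries of 3 pools (Control, Mild IOP, Moderate IOP), 3 technical replicates each, were analysed from the deposited tables, with groups and replicate numbers taken from the labels. The authors aligned reads to mm10 (TopHat2 per the labels) and estimated FPKM per locus and library with Cufflinks. The authors' Cuffdiff tests were not used. Here FPKM were summed per symbol and scaled by median-of-ratios factors, 2 symbols with failed estimates were dropped, and genes with a mean of at least 0.5 were fitted as log2(scaled FPKM + 1) with limma 3.58.1 (R 4.3.3) over all 9 libraries, with Benjamini-Hochberg adjustment over all 13043 genes (FDR below 0.1, two-sided). Fragments behind a value were (2 × FPKM / (upper bound − FPKM)) squared. Depths used transcript lengths of GENCODE M21 and depend on the transcript chosen. No 2 libraries held identical values. The fit was tested on simulated data. Members and lists were chosen with earlier results of these data known. Named genes were all 10 members, every wider clock gene called or among the 3 highest in Control, and called light input and immediate early genes (at most 4 a list). Genes overlapping a member were also named, as was the nearest gene outside all lists to each called member. Alternatives were tried for scaling, pseudocount, filter, variance, array weights, replicate block and single libraries.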

Additional observations from a re-analysis of the deposited data

Results flagged for a closer look

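In 2 clock genes the effects of the pressures differed by the direct test of one against the other. Against Control, Nr1d2 had log2 fold-changes of 0.43 at the lower pressure and −0.37 at the higher, a difference of −0.80 (FDR 0.0125 by limma), and the 3 libraries of each pressure all lay on that side of the Control libraries. For Cry2, the values were 0.13 and −0.34, a difference of −0.48 (FDR 0.0608). Its Moderate IOP libraries all lay below Control, while 1 of the 3 Mild IOP libraries fell within the Control range. Both differences compare pools. Groups of 3 libraries were not screened for single outlying values.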

How the results depend on the processing

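The call of Nr1d2 between the pressures held under all 10 alternatives tried and without each library in turn (FDR 0.00777 to 0.0522), and against Control no alternative called a clock gene. The call of Cry2 was lost without a variance trend, which left 1 clock gene called, and the clock genes called without 1 library numbered 1 to 2. Libraries with the same replicate number in different groups came from different pools. Their deviations from the group means correlated at −0.0051 to 0.0443, and those of different-numbered libraries at −0.0507 to 0.0418. Whether same-numbered libraries shared a preparation step was not tested. With a replicate block, the number of DEGs was 25 for Mild IOP, 135 for Moderate IOP and 1120 between the pressures, Nr1d2 and Cry2 remained called and Nono did not (FDR 0.153). Per1 and Clock could not be tested with the filter at a mean of 5. Given the spread between libraries, a 1.5-fold change was not detectable in Per1. Of the clock genes, only Dbp and Nr1d1 had 95% intervals within a 1.5-fold change in every comparison.

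DEGs of Mild IOP against Control numbered 28 under upper-quartile scaling, 24 with no filter on low values, 85 with a filter at a mean of 5, 11 with the variance of the compared groups alone, 15 without a variance trend and 115 with array weights. They ranged from 15 to 183 without 1 library, moving by over 1.5 times without each library other than Moderate IOP replicates 1 and 3. DEGs of Moderate IOP against Control numbered 134 with the variance of the compared groups alone, 144 without a variance trend and 61 to 287 without 1 library, moving as far without Control replicates 1 and 2, Mild IOP replicate 1 or Moderate IOP replicates 1 and 2. Between the pressures they numbered 839 without a variance trend and 519 to 1399 without 1 library, moving as far without Mild IOP replicates 1 and 2 or Moderate IOP replicate 2.

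Of the wider clock list, 1 gene was called for Moderate IOP against Control without scaling and 1 with a filter at a mean of 5 (Csnk1d in both), and 0 to 1 without 1 library (Bhlhe41 without Control replicate 3). Between the pressures, 4 were called under upper-quartile scaling, 4 with a filter at a mean of 5, 1 with a pseudocount of 0.1, 1 without a variance trend, and 0 to 3 without 1 library, with 0 left without Mild IOP replicate 1, Mild IOP replicate 2 or Moderate IOP replicate 3. The cause of these shifts was not tested.

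Sign changes occurred only among differences that were not called. For Mild IOP against Control, Dbp was at 0.0122 without scaling, 0.0498 under upper-quartile scaling and 0.0051 with array weights. For Moderate IOP against Control, Per1 was at −0.0664 with array weights and Clock at −0.0153 without scaling. Without 1 library, the log2 fold-changes in Mild IOP ranged from −0.0745 to 0.32 for Per1, −0.19 to 0.15 for Per2, −0.0881 to 0.40 for Cry1, −0.10 to 0.0601 for Dbp and −0.10 to 0.11 for Csnk1d. In Moderate IOP they ranged from −0.13 to 0.40 for Per1, −0.28 to 0.0649 for Per2, −0.13 to 0.11 for Per3, −0.37 to 0.12 for Cry1, −0.0048 to 0.24 for Nr1d1 and −0.0901 to 0.15 for Clock. Between the pressures they ranged from −0.26 to 0.26 for Per1, −0.28 to 0.0276 for Per2 and −0.27 to 0.12 for Arntl.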
